A study of Mus musculus with 2 samples.

Results

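Cdkn1a, Cdkn1b, Cdkn1c, Cdkn2a, Cdkn2b, Trp53, Mdm2, Ccng1 and Gdf15 were followed in single cells from healthy and carbon tetrachloride-injured mouse livers, in every cell class outside hepatocytes. These 9 genes, of the 30406 genes present in both count matrices, were chosen by name as inhibitors of the cell cycle and as p53 and genes under its control, and all 9 were found by Ensembl identifier in both matrices. Both libraries were 10x Genomics 3′ libraries from Col1a2CreER:Rosa26tdTomato mice, in which a Cre recombinase driven by the Col1a2 promoter can switch on a red fluorescent protein in cells that have used that promoter. The healthy library came from uninjured mice, with a recorded age of 8 to 10 weeks. The CCl4 library came from mice given intraperitoneal CCl4, a toxin that hepatocytes convert into a reactive form, in corn oil 2 times per week for 12 weeks, starting at an age of 8 to 10 weeks. The study's methods describe mice of both sexes on a C57BL/6 background. For the single cells they describe a Nycodenz density gradient and a depletion of CD45+ cells with magnetic beads, whereas the labels call the cells whole liver cells. The number of animals behind each library and any tamoxifen dosing of these animals were not given in the sources used here. Whether the healthy mice were still of the recorded age when their livers were taken was not given either. There was 1 library per condition, so no difference between the conditions has a replicate check, no test was made, and injury, library and counting software (version 3.1.0 in the header of the healthy matrix, Cell Ranger 6.0.1 in that of the CCl4 matrix) cannot be told apart.

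Cells enter division when cyclin-dependent kinases (CDKs) inactivate the retinoblastoma family of pocket proteins, and the inhibitors studied here act on those kinases. Cdkn1a (p21), Cdkn1b (p27) and Cdkn1c (p57) form the Cip/Kip family and bind complexes of CDKs with cyclins, while Cdkn2a and Cdkn2b (p15Ink4b) are neighbours on chromosome 4 whose Ink4 products block Cdk4 and Cdk6. Cdkn2a encodes both p16Ink4a and, from another first exon and reading frame, p19Arf, an inhibitor of Mdm2, and a 3′ library reads the exons that both transcripts share. Trp53 (p53) is a transcription factor switched on by DNA damage and other stress, Mdm2 is the ubiquitin ligase that degrades it and at the same time its target, Ccng1 (cyclin G1) and Cdkn1a are classical targets, and Gdf15 is a secreted stress hormone that p53 and the integrated stress response can each induce. In liver, p21 and p16Ink4a are widely used as marks of growth arrest and senescence in stellate cells, cholangiocytes and hepatocytes.

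In the RefSeq annotation of GRCm38.p6, Cdkn1a lies on chromosome 17 from 29090979 to 29100722, Cdkn1b on chromosome 6 from 134920401 to 134925525, and Cdkn1c on chromosome 7 from 143458339 to 143461059. Cdkn2a (chromosome 4, 89274473 to 89294619) and Cdkn2b (89306289 to 89311032) stand side by side. Trp53 (69580348 to 69591873) and Ccng1 (40748552 to 40755309) are both on chromosome 11, Mdm2 is on chromosome 10 from 117688875 to 117710758, and Gdf15 is on chromosome 8 from 70629393 to 70632470. Windows of 250 bases before an annotated transcript start are printed below for the genes on which the comparisons turn, namely Cdkn1a and Cdkn2a with 2 starts each, and the p53 targets Mdm2 and Ccng1. They were taken from RefSeq (GRCm38.p6), in which 8 of the 9 members had an entry (11 windows), all but Cdkn1c. The starts used for Ccng1, Trp53 and Gdf15 and the other starts of Cdkn1a and Cdkn2a lie within the gene spans given above, so these windows reach into them. Capitals mark matches on either strand to the GC box GGGCGG, to the E2F site (TTTCCCGC, TTTCGCGC, TTTGCCGC or TTTGGCGC) and to a p53 motif, the repeated 10-base unit of the p53 consensus.
Cdkn1a, first start, chr17:29090729-29090978, plus strand: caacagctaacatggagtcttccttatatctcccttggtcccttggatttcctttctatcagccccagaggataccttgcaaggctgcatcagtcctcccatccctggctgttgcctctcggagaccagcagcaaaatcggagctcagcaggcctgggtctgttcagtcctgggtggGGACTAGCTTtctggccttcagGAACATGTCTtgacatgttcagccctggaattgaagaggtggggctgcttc
Cdkn1a, second start, chr17:29093519-29093768, plus strand: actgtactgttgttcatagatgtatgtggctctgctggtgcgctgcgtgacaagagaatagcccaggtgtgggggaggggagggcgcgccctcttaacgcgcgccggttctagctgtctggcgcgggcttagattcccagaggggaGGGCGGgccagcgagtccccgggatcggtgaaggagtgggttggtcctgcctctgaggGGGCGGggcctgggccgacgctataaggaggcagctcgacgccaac
Cdkn2a, distal start (first exon of p19Arf), chr4:89294620-89294869, minus strand: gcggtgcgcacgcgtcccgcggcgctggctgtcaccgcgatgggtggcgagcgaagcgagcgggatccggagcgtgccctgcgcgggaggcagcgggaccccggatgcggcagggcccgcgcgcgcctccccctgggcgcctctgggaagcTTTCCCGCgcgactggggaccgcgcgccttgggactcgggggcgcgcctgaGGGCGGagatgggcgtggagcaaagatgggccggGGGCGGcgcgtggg
Cdkn2a, proximal start (first exon of p16Ink4a), chr4:89282193-89282442, minus strand: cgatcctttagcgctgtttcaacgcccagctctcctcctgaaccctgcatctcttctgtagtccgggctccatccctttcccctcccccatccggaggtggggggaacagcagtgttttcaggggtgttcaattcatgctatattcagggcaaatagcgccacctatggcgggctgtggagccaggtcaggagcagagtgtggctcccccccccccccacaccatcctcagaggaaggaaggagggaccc
Mdm2, chr10:117710759-117711008, minus strand: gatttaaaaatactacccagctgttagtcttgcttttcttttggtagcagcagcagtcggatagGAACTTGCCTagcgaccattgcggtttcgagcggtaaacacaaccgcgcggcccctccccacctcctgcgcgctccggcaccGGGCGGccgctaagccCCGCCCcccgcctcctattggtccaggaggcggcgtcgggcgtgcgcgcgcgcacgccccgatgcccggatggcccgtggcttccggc
Ccng1, chr11:40755287-40755536, minus strand: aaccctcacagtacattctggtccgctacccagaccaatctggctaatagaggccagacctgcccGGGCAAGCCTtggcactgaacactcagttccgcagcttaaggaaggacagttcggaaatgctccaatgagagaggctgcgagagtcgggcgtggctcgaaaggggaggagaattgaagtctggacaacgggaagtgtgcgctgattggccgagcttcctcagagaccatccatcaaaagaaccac
The 2 starts of Cdkn2a are 12427 bases apart and their windows differ in composition. The distal window is 78.4% G or C with 40 CpG dinucleotides, 2 GC boxes starting 48 and 14 bases before the start, and an E2F site 99 bases before it, and the proximal window is 60.0% G or C with 7 CpG dinucleotides and no match to any of the motifs. The first start of Cdkn1a has 2 p53 motifs, at 73 and 51 bases before the start, while the second start has 2 GC boxes at 104 and 46 bases. Mdm2 has GC boxes at 104 and 88 bases and a p53 motif at 186 bases, and Ccng1 has a p53 motif at 185 bases. Among 32851 windows of the same length over all genes, 32.7% held a GC box, 1.86% an E2F site and 7.13% a p53 motif. Trp53 had a p53 motif at 75 bases and Cdkn1b a GC box at 61 bases. The windows of Cdkn2b and Gdf15 held none of these letters. The matches describe the sequences only.

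The healthy matrix held 6297 cell barcodes with 51122846 UMIs (molecular barcodes, so that copies of the same captured RNA are counted once) and the CCl4 matrix 8460 barcodes with 97611831 UMIs, and 10 barcode sequences occurred in both. After filters 5605 healthy and 7316 CCl4 cells remained, with medians of 6796 and 11890.5 UMIs per cell, and they fell into 25 clusters, from which 3 clusters with mainly hepatocyte markers (325 and 330 cells) were left out. The members and all pathway lists were kept out of the genes used for clustering. Clusters were called "X-like" from marker lists, and markers of the named class were the most frequent in each. The libraries shared few populations, and the part of cell isolation in this was not tested. Endothelial-like cells (3537 healthy and 17 CCl4) and cholangiocyte-like cells (1440 and 33) were almost all healthy, whereas mesenchymal-like cells (11 and 3332), macrophage and monocyte-like (13 and 202), neutrophil-like (1 and 66) and T and NK cell-like cells (4 and 97) were almost all from the CCl4 library. Mesothelial-like cells were the only named class outside hepatocytes with more than 50 cells in each (232 and 1557). Clusters without a name are given by number. Levels below are CPM (counts scaled to a common total per population, from its summed UMIs), with exact Poisson 95% intervals, shares of cells with a UMI carry exact binomial (Clopper-Pearson) intervals, and ratios carry exact conditional binomial intervals. All of them cover counting error only. Fewer cells of a subtype and less RNA per cell cannot be told apart within a population.

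**Figure D1:**
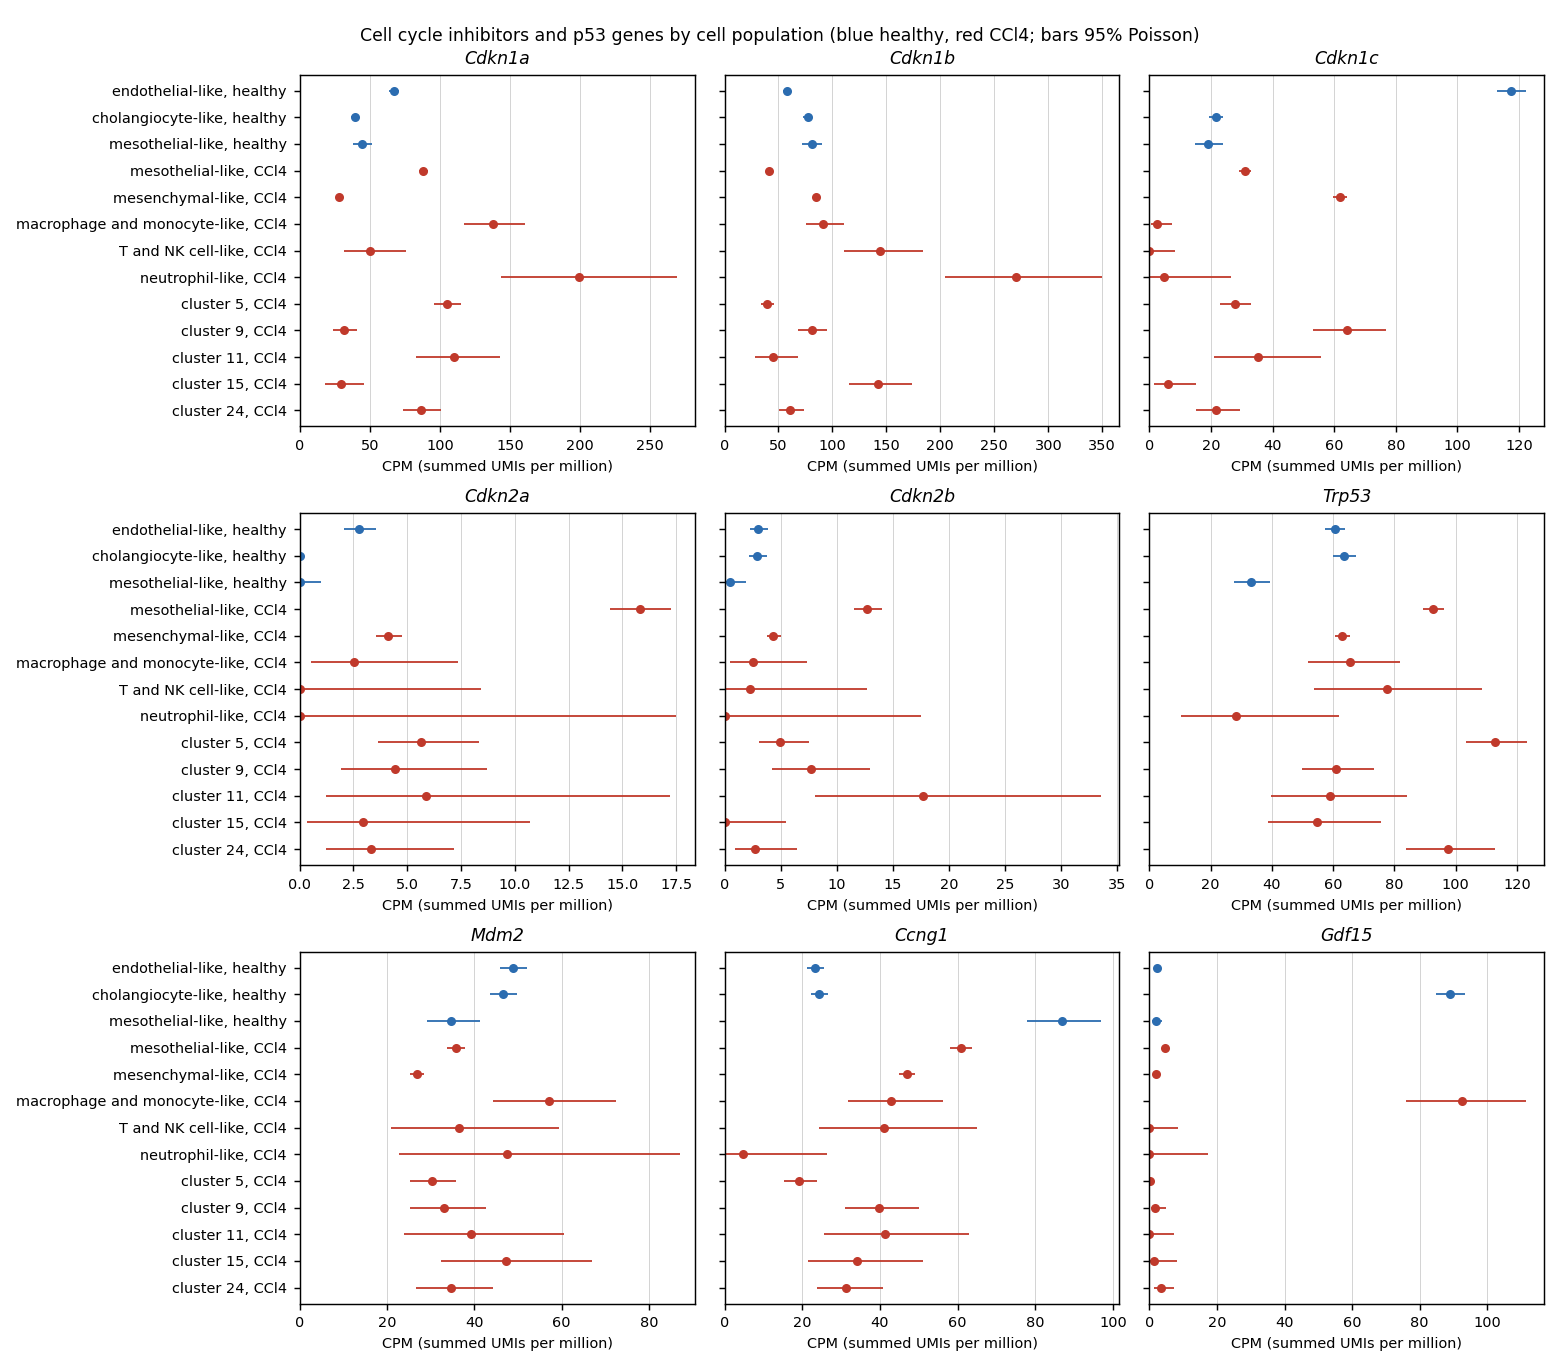
Level of each member in the 13 populations of at least 50 cells (CPM on a linear axis from 0, one panel per gene, points with exact Poisson 95% bars; blue healthy library, red CCl4 library). Cdkn2a stands highest in CCl4 mesothelial-like cells at 15.8 CPM, with 478 of its 489 UMIs there in cluster 23. Gdf15 is near 90 CPM in macrophage and monocyte-like and healthy cholangiocyte-like cells and below 5 CPM in the other populations.

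The Cip/Kip inhibitors were found in nearly every population, each with its own order. Cdkn1a was highest in neutrophil-like cells at 199 CPM (interval 143 to 269) and in macrophage and monocyte-like cells at 138 CPM (117 to 161), and it was lowest in mesenchymal-like cells of the CCl4 library at 28.0 CPM (26.4 to 29.6). Cluster 5 (105 CPM), CCl4 mesothelial-like cells (88.2 CPM) and healthy endothelial-like cells (67.1 CPM) lay between. The neutrophil-like level exceeded the macrophage and monocyte-like level by 1.44 times (interval 1.004 to 2.04), while macrophage and monocyte-like cells, cluster 11 and cluster 5, the next in the order, did not differ beyond counting error from one to the next. Macrophage and monocyte-like cells also carried 13372 CPM of neutrophil markers and 2058 CPM of erythroid markers, whose part in their levels was not tested. In cluster 11, 56 UMIs of Cdkn1a came from 9.52% of its 105 cells. Cdkn1b, which holds quiescent cells out of the cycle, also led in neutrophil-like cells at 270 CPM (205 to 350), followed by T and NK cell-like cells at 144 CPM (111 to 184) and cluster 15, a cluster with markers of B cells and plasmacytoid dendritic cells, at 142 CPM. Its lowest levels were 40.8 CPM in CCl4 mesothelial-like cells and 39.2 CPM in cluster 5, which did not differ beyond counting error.

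Cdkn1c had the narrowest range of cells of the family. It was highest in healthy endothelial-like cells at 117 CPM (113 to 122), 1.83 times (1.52 to 2.23) the next level, and reached 61.9 CPM in mesenchymal-like cells. Immune-like cells had almost none of it, with 3 UMIs in 202 macrophage and monocyte-like cells, 1 UMI in 66 neutrophil-like cells and 0 in 97 T and NK cell-like cells, which allows up to 6.85 CPM. Within the endothelial-like clusters Cdkn1c ranged from 88.7 CPM in cluster 6, led by Ccl21a and Vwf, to 134 CPM in cluster 1. Within the mesenchymal-like clusters the spread was wider. Cluster 18, led by Dpep1, Thbs4 and Mfap4, stood at 105 CPM (101 to 110), cluster 13 at 35.3 CPM, cluster 19, led by the stellate cell genes Angptl6, Colec10 and Rgs5, at 29.3 CPM, cluster 14 at 23.7 CPM and the low-UMI cluster 22 at 6.53 CPM.

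The Ink4 genes were rare, with totals of 57 healthy and 722 CCl4 UMIs for Cdkn2a and 119 and 645 for Cdkn2b over the kept cells. Cdkn2a was highest in CCl4 mesothelial-like cells at 15.8 CPM (14.4 to 17.3), against 4.13 CPM (3.56 to 4.77) in mesenchymal-like cells of the same library. Of these 489 mesothelial-like UMIs, 478 were in cluster 23 (32.2 CPM), whose markers summed to 16906 CPM for mesenchymal and 1651 CPM for mesothelial cells. The other CCl4 mesothelial-like cluster, cluster 12, had 11 UMIs (0.683 CPM), below the mesenchymal-like level. All 57 healthy UMIs were in endothelial-like cells, at 2.75 CPM (2.08 to 3.56). There, 1.33% of 3537 cells had a UMI (0.978 to 1.76%), although these cells had fewer UMIs (median 5966) than the healthy cholangiocyte-like cells (median 11218), in which 0 of 1440 cells had one, which allows a share of up to 0.208%. Among the populations with a UMI no neighbours in the order of Cdkn2a differed beyond counting error, including CCl4 mesothelial-like cells over cluster 11 with its 3 UMIs (2.69, 0.914 to 13.1). Cdkn2a was also at 0 in 232 healthy mesothelial-like, 66 neutrophil-like and 97 T and NK cell-like cells. Cdkn2b was highest in CCl4 mesothelial-like cells at 12.7 CPM (11.5 to 14.1) apart from cluster 11, where all 9 UMIs came from 1 cell. Cluster 23 held 341 and cluster 12 held 53 of these mesothelial-like UMIs. The low-UMI cluster 9 had 7.74 CPM, cluster 5 had 4.96 CPM and mesenchymal-like cells 4.35 CPM (3.76 to 5.01), levels that did not differ beyond counting error from one to the next, and healthy endothelial-like and cholangiocyte-like cells had 2.99 and 2.93 CPM.

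Trp53 and Mdm2, the factor and its ligase, varied less than the inhibitors. Trp53 was highest in cluster 5 at 113 CPM (103 to 123), cluster 24 at 97.5 CPM and CCl4 mesothelial-like cells at 92.7 CPM (89.3 to 96.1). It stood at 60.5 to 65.5 CPM in healthy endothelial-like and cholangiocyte-like cells, in mesenchymal-like and in macrophage and monocyte-like cells, 4 populations whose neighbours in the order did not differ beyond counting error. The lowest values were 33.2 CPM in healthy mesothelial-like and 28.4 CPM in neutrophil-like cells. Mdm2 ran from 26.9 CPM in mesenchymal-like to 57.1 CPM in macrophage and monocyte-like cells, and no pair of neighbours in its order differed beyond counting error. Only neighbours were compared, so this does not make the order flat. Healthy endothelial-like and cholangiocyte-like cells stood at 48.9 and 46.6 CPM (1014 and 860 UMIs), well above the mesenchymal-like level (1203 UMIs). Ccng1 followed another order, with 86.9 CPM (77.8 to 96.8) in healthy mesothelial-like cells, 60.8 CPM in CCl4 mesothelial-like cells and 46.9 CPM in mesenchymal-like cells, against 24.4 and 23.3 CPM in healthy cholangiocyte-like and endothelial-like cells and 1 UMI in 66 neutrophil-like cells.

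Among the populations of at least 50 cells Gdf15 was high in 2 and low or at 0 in the others. Macrophage and monocyte-like cells of the CCl4 library had 92.4 CPM (75.9 to 111) and healthy cholangiocyte-like cells 89.0 CPM (84.7 to 93.4), and the latter exceeded the next population, CCl4 mesothelial-like cells at 4.62 CPM, by 19.2 times (16.2 to 22.99). The 2 leading levels did not differ beyond counting error (ratio 1.04, 0.849 to 1.26), but they were spread over cells differently. In cholangiocyte-like cells 37.7% of 1440 cells had a Gdf15 UMI (35.2 to 40.3%, median depth 11218 UMIs), against 9.90% of 202 macrophage and monocyte-like cells (6.15 to 14.9%, median depth 4715.5 UMIs). After thinning each cell to 2000 UMIs, which left out 83 and 65 shallower cells, the shares were 13.1% and 7.69%, and 1 macrophage and monocyte-like cell alone held 24 of the 110 UMIs. Cholangiocyte-like cells also carried the highest summed level of integrated stress response genes among the named populations of at least 50 cells, at 1255 CPM. Neutrophil-like cells had 1076 CPM and healthy and CCl4 mesothelial-like cells 1049 and 1035 CPM, with Gdf15 at 0, 1.84 and 4.62 CPM. Macrophage and monocyte-like cells had 932 CPM and endothelial-like cells 538 CPM. Genes induced by tissue dissociation were also highest in cholangiocyte-like cells, at 14501 CPM. T and NK cell-like cells, with 0 Gdf15 UMIs, had 12248 CPM of them, endothelial-like cells 10719 CPM and macrophage and monocyte-like cells 9291 CPM. The part of either list in the level of Gdf15 was not tested. The few cells of the opposite library gave 17 Gdf15 UMIs in 33 CCl4 cholangiocyte-like cells and 27 UMIs in 13 healthy macrophage and monocyte-like cells, and no ratio was formed from so few cells.

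The genes whose levels followed each member most closely over the 8 class-by-library populations of at least 50 cells are given as a description, since 8 points from 2 libraries share depth and library. Cdkn2a went most closely with Cyp1b1 (Pearson r = 0.998 on log2(CPM + 1)), one of the genes that lead cluster 23, and then with Ccn3 (0.935) and Fscn1 (0.932). For Cdkn1a the closest genes were Hdc (0.957), Neat1 (0.955) and Klf10 (0.954), and for Cdkn1b they were Dennd4a (0.970), the D cyclin gene Ccnd3 (0.939) and Gm47230 (0.921). Cdkn1c went with Bcar1 (0.978), Czib (0.974) and Amotl1 (0.969). Cdkn2b went with Ammecr1 (0.932), Tnip1 (0.913) and Ubxn4 (0.907). Trp53 went with Ciapin1 (0.933), Wdr43 (0.928) and the mitotic kinase gene Cdk1 (0.918), while its target Mdm2 went with Aftph (0.961), Map3k11 (0.911) and Neu1 (0.906). Ccng1 went with Sec61g (0.976), Srp14 (0.976) and Nab2 (0.965), and Gdf15 with the B cell adaptor gene Blnk (0.959) and Tbxas1 (0.949). No member was among the closest 3 genes of another member.

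The first comparison asked how the members differed between injured and healthy liver in the only class with enough cells in each library. In CCl4 mesothelial-like cells the inhibitors Cdkn1a, Cdkn2a and Cdkn2b and the p53 gene itself were higher than in healthy mesothelial-like cells, whereas Cdkn1b was lower and Mdm2 differed by less than counting error. Cdkn1a was 88.2 against 44.3 CPM (ratio 1.99, interval 1.71 to 2.34) and Trp53 92.7 against 33.2 CPM (2.79, 2.34 to 3.36). Cdkn2a had 489 UMIs against 0, a ratio of 19.999 when the healthy count is raised to 3, and the lower end of its interval was 16.2. Of the CCl4 cells 11.8% (10.3 to 13.5%, median 18804 UMIs) against 0 of 232 healthy cells (median 18282 UMIs) had a UMI of it, which allows a healthy share of up to 1.29%. Cdkn2b had 394 UMIs against 2, a ratio of 24.2 with an interval from 6.65 to 200.

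Cdkn1b was 40.8 against 80.9 CPM (0.504, 0.445 to 0.573), Cdkn1c 31.0 against 19.0 CPM (1.64, 1.29 to 2.11) and Gdf15 4.62 against 1.84 CPM, from 143 and 7 UMIs (2.51, 1.19 to 6.35). Of the p53 targets, Mdm2 was 35.7 against 34.8 CPM (1.03, 0.857 to 1.24) and Ccng1 60.8 against 86.9 CPM (0.700, 0.622 to 0.789). A gene was counted as higher or lower when its ratio was at least 1.5 in that direction and it had at least 20 UMIs in both groups together. By this rule 6 of the 9 members were higher and 1 was lower, among 13346 genes of which 24.4% were higher and 26.0% lower. The median log2 ratio of all these genes was -0.08. When no doublets were removed, Cdkn1a fell short of the rule at 1.36 and Gdf15 was lower rather than higher, at 0.635.

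**Figure D2:**
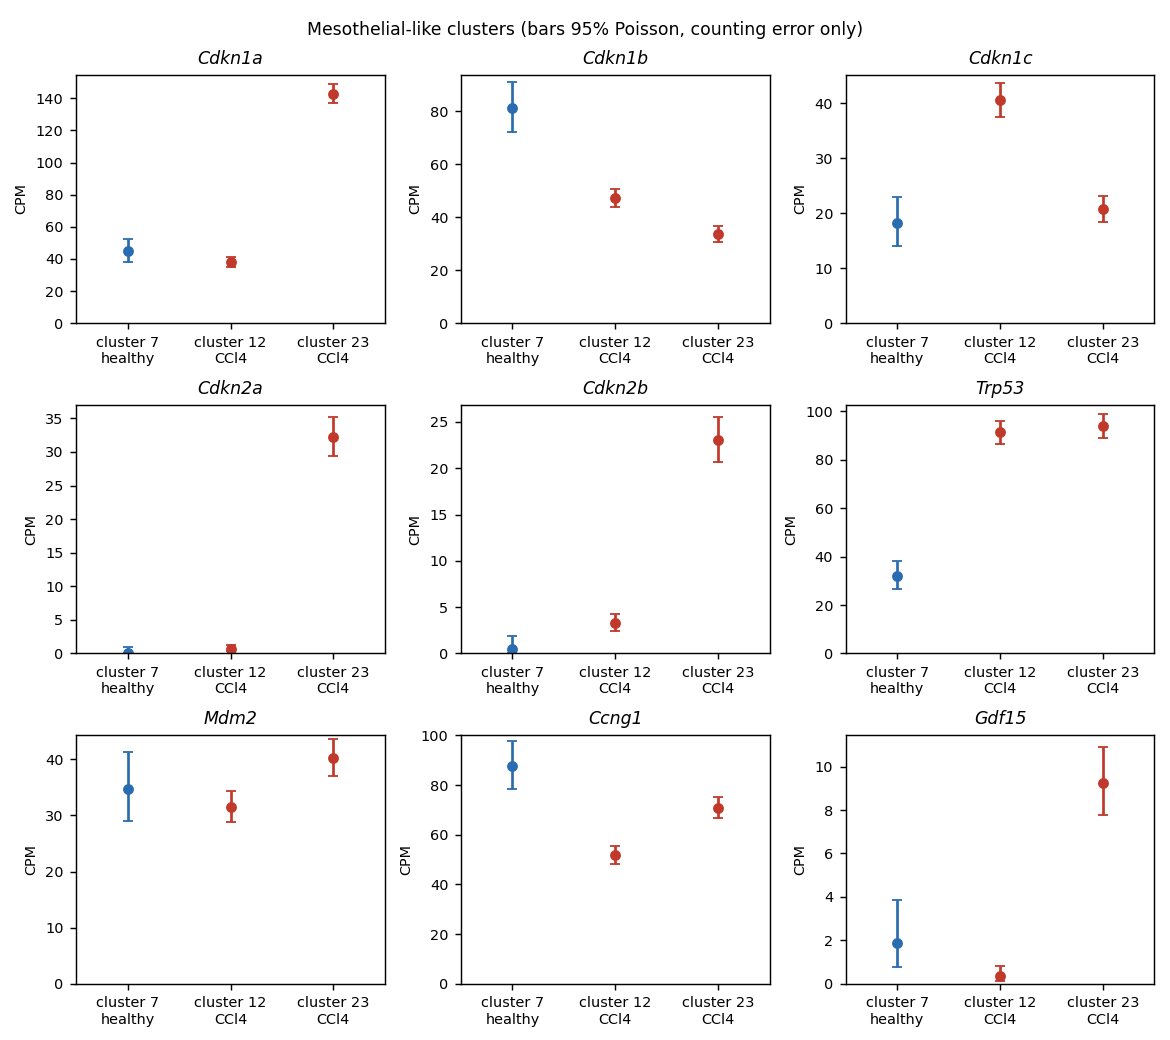
Level of each member (CPM on a linear axis from 0, with exact Poisson 95% bars) in the 3 mesothelial-like clusters, cluster 7 of the healthy library in blue and clusters 12 and 23 of the CCl4 library in red. Cdkn1a, Cdkn2a, Cdkn2b and Gdf15 are highest in cluster 23, while Trp53 is at 91.4 and 94.1 CPM in the 2 CCl4 clusters and at 32.1 CPM in cluster 7.

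The class was made of different clusters in the 2 libraries, and the CCl4 clusters differed from each other in most members. Cluster 7 held 229 of the 232 healthy cells, and the CCl4 cells were divided into cluster 12 (859 cells) and cluster 23 (698 cells). Wt1, a transcription factor of mesothelium, was at 296, 323 and 266 CPM in clusters 7, 12 and 23, whereas the mesothelial surface proteins Msln and Upk3b were at 2537, 617 and 40.5 CPM and at 2009, 938 and 115 CPM. The summed mesothelial markers stood at 12259, 5113 and 1651 CPM and the summed mesenchymal markers at 10175, 8340 and 16906 CPM. Cluster 23 rested on 5 mesothelial and 3 mesenchymal markers and was led by Serpinb2, Cxcl5, Enpp2 and Cxcl13, so it is called by its number below. Lists of other cell types differed between the clusters as well. Neutrophil markers summed to 7.75, 330 and 431 CPM and erythroid markers to 1.34, 14.3 and 237 CPM, with 9 of 11 neutrophil and 6 of 7 erythroid markers at 0 in cluster 7. Hepatocyte markers summed to 1815, 2539 and 3202 CPM, although most single markers were lower than in cluster 7. In cluster 12, 21 of 23 tested were lower and 2 higher, and in cluster 23, 20 of 22 were lower and 2 higher. The part of these lists in the differences was not tested.

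Cluster 12, the CCl4 cluster closer to healthy mesothelium in its markers, did not carry the Cdkn1a and Cdkn2a differences of the class. Its Cdkn1a was 38.0 CPM, 0.846 times that of cluster 7 (0.712 to 1.01), and it had 11 Cdkn2a UMIs in 859 cells. Its Trp53 was nevertheless 91.4 CPM, 2.85 times that of cluster 7 (2.36 to 3.46). Cdkn2b was higher in it as well, at 3.29 against 0.535 CPM from 53 and 2 UMIs (6.15, 1.62 to 52.1), whereas Gdf15, counted as higher for the class, had 6 UMIs against 7 (0.199, 0.0552 to 0.691). Mdm2 was 31.5 against 34.8 CPM (0.907, 0.747 to 1.11). Cdkn1c was 40.5 against 18.2 CPM (2.23, 1.73 to 2.91), Cdkn1b 47.4 against 81.3 CPM (0.583, 0.509 to 0.668) and Ccng1 51.6 against 87.7 CPM (0.589, 0.518 to 0.671).

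In cluster 23 the inhibitors Cdkn1a, Cdkn2a and Cdkn2b reached their highest levels of the mesothelial-like clusters. Cdkn2a stood at 32.2 CPM (29.4 to 35.3) with a UMI in 25.2% of cells (22.03 to 28.6%), against 0.683 CPM in cluster 12, a ratio of 47.2 (26.2 to 95.2). Cdkn2b stood at 22.999 against 3.29 CPM (6.99, 5.22 to 9.52) and Cdkn1a at 143 against 38.0 CPM (3.76, 3.44 to 4.12). Gdf15 stood at 9.24 against 0.372 CPM (24.8, 11.1 to 68.8), from 137 and 6 UMIs. Trp53 did not separate the CCl4 clusters (94.1 against 91.4 CPM, 1.03, 0.956 to 1.11). Of its targets, Mdm2 was 40.3 against 31.5 CPM (1.28, 1.13 to 1.44) and Ccng1 70.8 against 51.6 CPM (1.37, 1.251 to 1.504). Both were higher in cluster 23 beyond counting error but, unlike the target Cdkn1a, stayed under the 1.5-fold rule. Cdkn1c was lower in cluster 23, at 20.7 against 40.5 CPM (0.511, 0.445 to 0.586), and Cdkn1b was 33.7 against 47.4 CPM (0.711, 0.634 to 0.797). Cdkn1a and Cdkn2a were often read in the same cells of cluster 23, since 59.1% of the 176 cells with a Cdkn2a UMI had a Cdkn1a UMI, against 40.6% of the others, and the cells with Cdkn2a were also deeper, with medians of 26230 and 19227 UMIs.

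The other genes of the pathway, from lists chosen by function, were compared in CCl4 and healthy mesothelial-like cells. Of all 13346 genes tested between these cells 24.4% were higher and 26.0% lower. Of 3 other CDK inhibitors 1 was higher and 0 lower, namely Cdkn3, a phosphatase of mitotic CDKs, at 11.3 against 0.263 CPM. Of 11 D and E cyclins, their kinases and pocket proteins 5 were higher and 4 lower, with Cdk4 at 151 against 74.8 CPM and Cdk6 at 82.0 against 31.4 CPM, the kinases that the Ink4 proteins block, and the D cyclins Ccnd2 at 117 against 214 CPM and Ccnd1 at 26.4 against 53.2 CPM. Of 11 p53 regulators 1 was higher, Chek1, and 3 were lower, among them the damage kinase Chek2 at 11.8 against 20.3 CPM and the p53 phosphatase Ppm1d at 10.4 against 16.3 CPM. Of 28 other p53 targets 8 were higher and 5 lower, with the pro-apoptotic gene Bax at 102 against 61.4 CPM, Plk2 at 47.9 against 16.9 CPM and the growth arrest gene Gadd45a at 21.2 against 74.8 CPM. The median log2 ratio was 0.03 for the other p53 targets and 0.39 for the D and E cyclin list, beside -0.08 for all genes. All 34 G2M genes and 24 of 26 S phase genes were higher, and so were 11 of 16 senescence secretory genes, among them Ccl2 at 579 against 0.790 CPM and Timp1 at 617 against 166 CPM, while 2 were lower, among them Igfbp5 at 414 against 9809 CPM. Of 11 integrated stress response genes 3 were higher and 5 lower, with Atf3 at 542 against 279 CPM and Atf5 at 33.0 against 150 CPM. The dissociation response genes were higher too (10 of 14, summed 11649 against 7565 CPM), and their part in these differences was not tested. Between cluster 23 and cluster 12 all 34 G2M genes and 22 of 26 S phase genes were again higher. Of 28 other p53 targets 9 were higher and 6 lower. Plk2 was at 79.5 against 18.8 CPM and Phlda3 at 96.9 against 30.6 CPM, whereas Btg2 was at 712 against 1114 CPM and Ei24 at 58.4 against 89.3 CPM. Of 14 dissociation response genes 0 were higher and 4 lower. Of 13063 genes tested between these clusters 14.4% were higher and 25.3% lower, beside 4 and 1 of the 9 members.

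The second comparison was planned between CCl4 and healthy endothelial-like cells, but only 17 CCl4 cells fell in a cluster of that name, under the minimum of 50 cells, so no ratio was formed. The CCl4 cells with endothelial markers lay in cluster 5 (661 CCl4 and 27 healthy cells), which carried 25 endothelial markers with Pecam1 at 607 CPM, against 660 CPM in healthy endothelial-like cells, and stayed unnamed because globin genes led it. Hepatocyte markers, which free RNA can bring into other cells, summed to 140 CPM in it and 2421 CPM in healthy endothelial-like cells, all 25 of them lower. Erythroid markers summed to 26020 CPM in it and 0.530 CPM in the healthy cells, all 7 of them higher, endothelial markers summed to 23774 and 38968 CPM, and mesenchymal markers to 1261 and 811 CPM. Of the endothelial markers 2 of 34 were higher and 14 lower. Beside globin genes cluster 5 was led by Esm1, Nts and Erg, whereas the largest healthy endothelial-like cluster, cluster 1, was led by Clec4g and Cd300lg. The part of these lists and of endothelial subtypes in the following values was not tested.

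Cluster 5 had more Cdkn1a and Trp53 and far less Cdkn1c than healthy endothelial-like cells. Trp53 was 113 against 60.5 CPM (1.87, 1.68 to 2.07) and Cdkn1a 105 against 67.1 CPM (1.56, 1.40 to 1.74). Cdkn1c was 27.7 against 117 CPM (0.236, 0.196 to 0.283). Mdm2 was lower as well, at 30.2 against 48.9 CPM (0.619, 0.513 to 0.741), and Cdkn1b was 39.2 against 57.9 CPM (0.678, 0.575 to 0.796) just short of the 1.5-fold rule. The Ink4 genes were counted as higher from few UMIs, with 25 against 57 for Cdkn2a (2.05, 1.23 to 3.34) and 22 against 62 for Cdkn2b (1.66, 0.972 to 2.74), and Gdf15 had 1 UMI against 48. Ccng1 was 19.2 against 23.3 CPM (0.822, 0.645 to 1.04). In all, 4 of the 9 members were higher and 3 lower, among 12444 genes of which 11.2% were higher and 36.3% lower, with a median log2 ratio of -0.33. The D cyclin gene Ccnd1, a driver of cell cycle entry, was at 775 against 133 CPM, 25 of 27 G2M genes and 23 of 25 S phase genes were higher, and 4 of 27 other p53 targets were higher and 11 lower, among them Fas at 45.1 against 146 CPM and Bax at 110 against 193 CPM. Under 6 other settings the class itself could be compared, with 299 to 678 CCl4 cells, and Trp53 was then 1.65 to 1.87 times, Mdm2 0.612 to 0.655 times and Cdkn1c 0.224 to 0.309 times the healthy level. The other higher calls depended on the setting. At a mitochondrial limit of 10% Trp53 alone was higher, with Cdkn1a at 1.481, Cdkn2a at 1.343 and Cdkn2b at 1.389, and at a Leiden resolution of 2 Cdkn2a was at 1.368. Gdf15 ran from 0.106 to 0.531.

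The third comparison was made within the CCl4 library, between cycling and non-cycling mesenchymal-like cells, the class that holds hepatic stellate cells and fibroblasts. A cell was called cycling when it had at least 10 UMIs of 34 G2M and 26 S phase genes together per 10000 of its UMIs, and the lists hold no member. This gave 194 cycling cells with 3241121 UMIs and 3138 non-cycling cells with 41554516 UMIs, and 241 cells lay near the limit, between 5 and 20. The median depth was 15676 and 13521 UMIs. A call from such a limit is a range and not a cell type, and all 73 cells of cluster 14, which is led by Prc1, Cenpf, Top2a and other mitotic genes, were cycling.

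Cycling mesenchymal-like cells had more of the arrest genes Cdkn2a and Cdkn1a than non-cycling cells and less Cdkn1c. Cdkn2a was 23.1 against 2.65 CPM, from 75 and 110 UMIs (ratio 8.74, 6.43 to 11.8), and 26.8% of cycling cells (20.7 to 33.6%) against 3.03% of non-cycling cells (2.46 to 3.69%) had a UMI of it. Thinned to 2000 UMIs per cell the shares were 4.45% and 0.531%, leaving out 12 and 116 shallower cells. In macrophage and monocyte-like cells of the same library, at a median depth of 4715.5 UMIs, the share was 1.49% (0.307 to 4.28%) and 0.0670% after thinning. Cdkn1a was 54.3 against 25.9 CPM (2.10, 1.78 to 2.46), with a UMI in 28.9% and 11.1% of cells. Cdkn1c was 35.5 against 64.0 CPM (0.554, 0.456 to 0.668).

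The remaining members differed by less than 1.5-fold or rested on few UMIs. Trp53 was 91.0 against 60.9 CPM, and its ratio of 1.496 (1.32 to 1.69) lay just under the rule. Mdm2 was 37.0 against 26.1 CPM (1.42, 1.17 to 1.72), Cdkn1b 96.9 against 84.1 CPM (1.15, 1.02 to 1.29) and Ccng1 51.2 against 46.6 CPM (1.10, 0.932 to 1.29). Cdkn2b had 18 UMIs in cycling cells (5.55 against 4.26 CPM, 1.30, 0.755 to 2.12) and Gdf15 had 4 (0.625, 0.166 to 1.66). By the rule 2 members were higher and 2 lower, the latter being Cdkn1c and Gdf15, whose interval includes 1, among 13315 genes of which 13.9% were higher and 14.0% lower. The median log2 ratio of all genes was 0.06. The ratio of Cdkn2a was 4.97 with a mitochondrial limit of 10% and 5.31 when no doublets were removed, and that of Cdkn1b was 0.894 with 30 principal components. The lower call of Gdf15 did not hold, since its ratio ran from 0.335 to 3.995 over the planned settings, the latter with 30 principal components, and those of Cdkn2b and Ccng1 ran from 1.08 to 4.22 and from 0.821 to 1.18. In the other CCl4 clusters with many cycling cells, 2 of 9 members (Cdkn1a and Mdm2) in cluster 23 and 1 of 8 (Cdkn1b) in cluster 5 had an interval on the other side of 1 from that in mesenchymal-like cells, as did 1.75% and 2.33% of all genes tested, and these differences between cell groups were not tested.

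**Figure D3:**
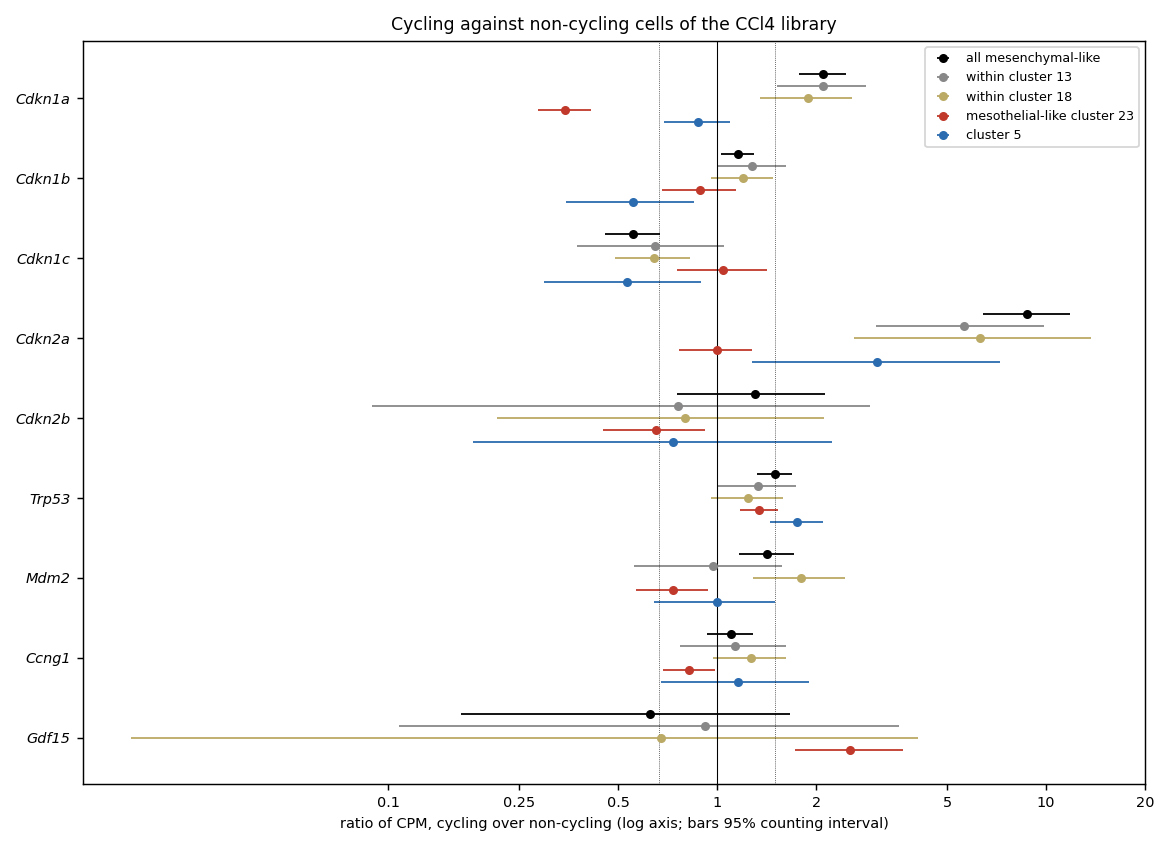
Ratio of CPM in cycling over non-cycling cells of the CCl4 library for each member (log axis, bars are 95% counting intervals, dotted lines mark 1.5-fold in either direction), in all mesenchymal-like cells (black), within clusters 13 (grey) and 18 (tan), in cluster 23 (red) and in cluster 5 (blue). Cdkn2a is right of 1 in the mesenchymal-like groups and in cluster 5 and at 0.996 in cluster 23, and Cdkn1a is at 2.10 in mesenchymal-like cells and at 0.344 in cluster 23.

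Cycling and non-cycling cells came from the mesenchymal-like clusters in different shares. Cluster 14 made up 37.6% of the cycling cells and none of the others, and cluster 19, which had the least Cdkn1a, made up 1.55% of the cycling and 23.8% of the non-cycling cells. Cluster 18, which had the most Cdkn1c, made up 26.8% of the cycling and 39.5% of the non-cycling cells. Within cluster 13, with 48 cycling and 891 non-cycling cells, the ratio of Cdkn2a was 5.61 (3.05 to 9.84), that of Cdkn1a 2.09 (1.52 to 2.83) and that of Cdkn1c 0.646 (0.373 to 1.05). Within cluster 18, with 52 and 1240 cells, the ratios were 6.29 (2.61 to 13.7), 1.89 (1.35 to 2.57) and 0.642 (0.490 to 0.827). The directions of Cdkn2a and Cdkn1a were therefore seen within each of these clusters. Cdkn1c was lower in both, but within counting error in cluster 13, where cycling cells had 17 UMIs of it. The part of the cluster shares in the lower Cdkn1c of all cycling cells was not tested. Mdm2 was 0.969 in cluster 13 and 1.79 in cluster 18. Cluster 22, with a median of 2293.5 UMIs per cell, had 18 cycling cells with at most 4 UMIs of any member, and leaving it out gave 8.82 for Cdkn2a, 2.12 for Cdkn1a, 0.552 for Cdkn1c and 1.502 for Trp53, which then passed the rule.

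Lists of other cell types were compared between the same cells. Mesenchymal markers summed to 33269 CPM in cycling and 36796 CPM in non-cycling cells, with 3 of 30 higher and 4 lower. Endothelial markers summed to 2254 and 2200 CPM, although 19 of 33 were higher and 2 lower, and mesothelial markers to 129 and 155 CPM. Erythroid markers summed to 14.5 and 109 CPM, with 4 of 4 lower. The part of these lists in the members' ratios was not tested.

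**Figure D4:**
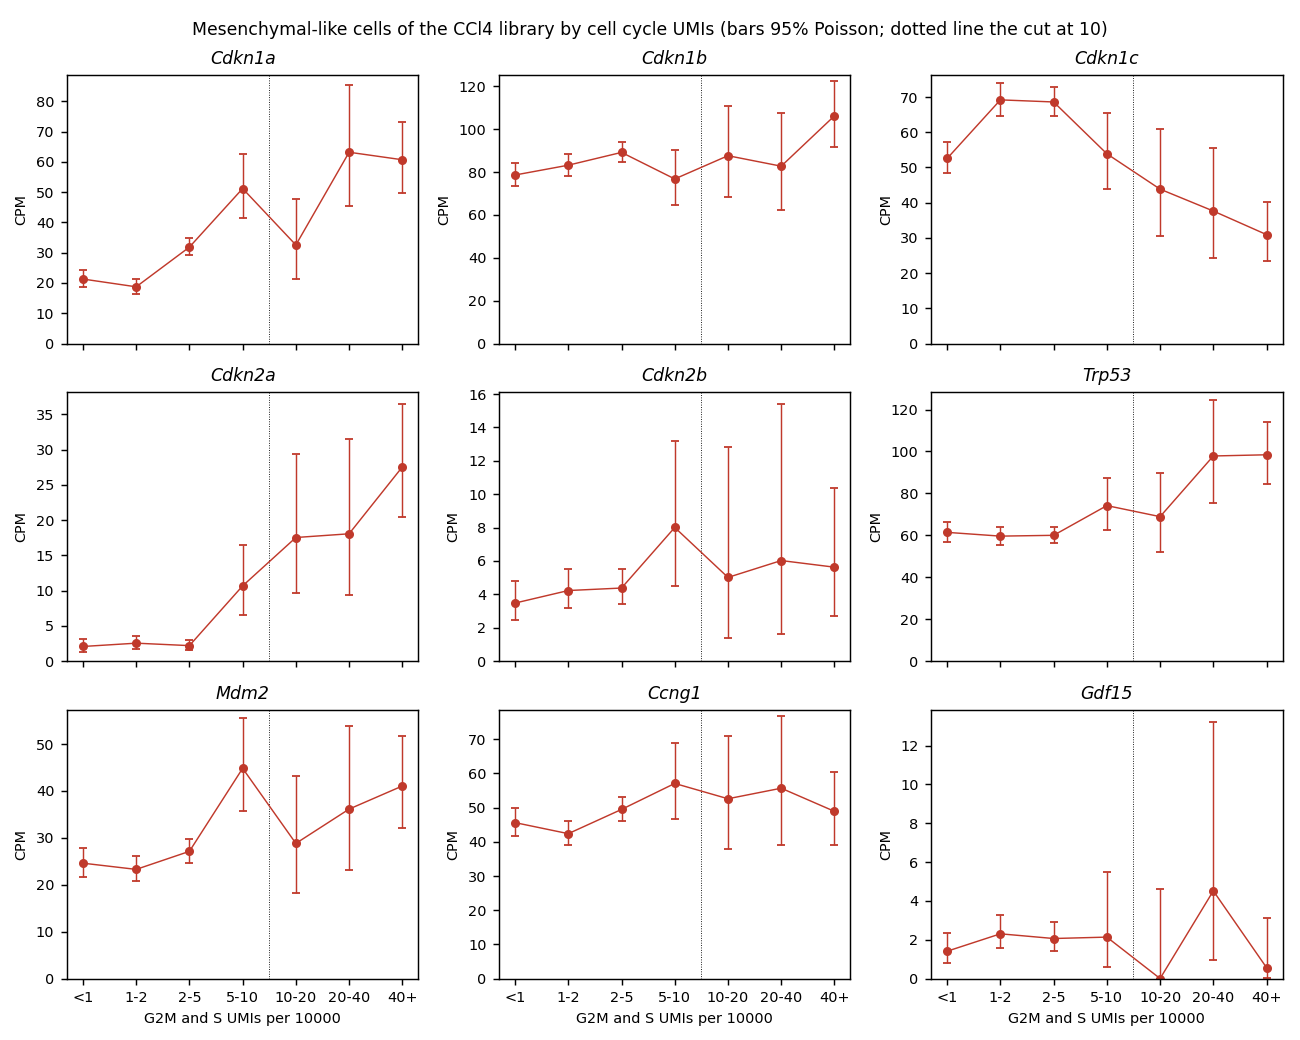
Level of each member (CPM from 0, exact Poisson 95% bars) in mesenchymal-like cells of the CCl4 library grouped by their G2M and S phase UMIs per 10000, with the dotted line at the limit of 10. Cdkn2a goes from about 2 CPM below 5 UMIs per 10000 to 27.6 CPM at 40 and more, and Cdkn1c goes from 69.2 CPM in the second group to 30.9 CPM in the last.

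Cdkn2a was low in the cells with the least cell cycle RNA and higher in the others. From the lowest to the highest of 7 groups of cells it was 2.07, 2.53, 2.19, 10.7, 17.5, 18.1 and 27.6 CPM, so that the lowest 3 groups did not differ beyond counting error, while the 181 cells just below the limit, with 5 to 10 UMIs per 10000, stood above them (6.52 to 16.5). The intervals of the 3 groups above the limit overlapped (9.59 to 29.4, 9.33 to 31.6 and 20.4 to 36.4). Cdkn1a was 18.7 to 31.9 CPM in the lowest 3 groups, 51.2 CPM just below the limit, 32.6 CPM just above it, and 63.2 and 60.7 CPM in the last 2. Trp53 lay between 59.6 and 61.4 CPM in the lowest 3 groups and at 97.8 and 98.4 CPM in the last 2. Cdkn1c was 69.2 and 68.6 CPM in the second and the third group and then 53.9, 43.8, 37.6 and 30.9 CPM, although the lowest group, at 52.6 CPM, stood below them.

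Cycling cells were further divided by which list gave more UMIs, with 40 cells leaning to S phase, 151 to G2M and 3 with equal counts. Cdkn1a, Cdkn1b and the p53 targets Mdm2 and Ccng1 were higher in the G2M-leaning cells, whereas Trp53 was lower. Cdkn1a was 63.4 against 28.0 CPM (ratio 2.27, 1.46 to 3.68), so that its level in the S-leaning cells was close to the 25.9 CPM of non-cycling cells, and 18 of the 23 S-leaning UMIs came from 1 cell. Cdkn1b was 111 against 54.7 CPM (2.04, 1.48 to 2.86), and the 84.1 CPM of non-cycling cells lay between. Mdm2 was 43.1 against 18.2 CPM (2.36, 1.37 to 4.37) and Ccng1 60.9 against 21.9 CPM (2.78, 1.70 to 4.83). Trp53 was 84.5 against 111 CPM (0.764, 0.594 to 0.989), with both groups above the 60.9 CPM of non-cycling cells. Cdkn2a was 24.5 against 19.5 CPM (1.26, 0.714 to 2.34), a difference within counting error, and so was that of Cdkn1c at 37.3 against 30.4 CPM (1.23, 0.780 to 1.995). The S-leaning cells were deeper, with a median of 23836 against 14985 UMIs, and they had more Acta2, a gene of contractile myofibroblasts, at 2835 against 543 CPM, whose part in these differences was not tested. After thinning, the shares of cells in G2M-leaning and S-leaning cells were 19.3% (13.2 to 26.7%) and 11.6% (3.35 to 26.6%) for Cdkn1b, 10.7% (6.20 to 17.0%) and 4.05% (0.275 to 16.5%) for Ccng1, and 7.55% (3.81 to 13.2%) and 5.99% (0.822 to 19.3%) for Mdm2, with intervals that overlapped for each.

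**Figure D5:**
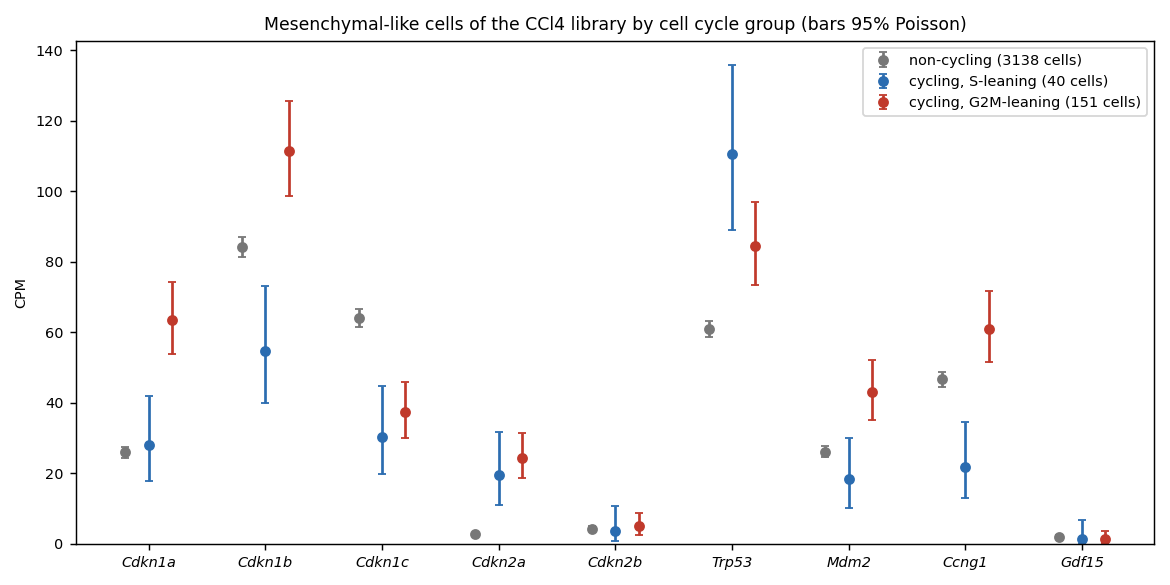
Level of each member (CPM from 0, exact Poisson 95% bars) in mesenchymal-like cells of the CCl4 library that were non-cycling (grey, 3138 cells), S-leaning (blue, 40 cells) or G2M-leaning (red, 151 cells). Cdkn1a, Cdkn1b, Mdm2 and Ccng1 are higher in G2M-leaning than in S-leaning cells, and Trp53 is highest in S-leaning cells at 111 CPM.

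Other genes of the pathway in cycling over non-cycling mesenchymal-like cells included all 3 of the other CDK inhibitors as higher, with the Ink4 family members Cdkn2c at 73.1 against 41.0 CPM and Cdkn2d at 76.8 against 24.8 CPM, and Cdkn3 at 97.2 against 2.24 CPM. Of the D and E cyclins, their kinases and pocket proteins 6 of 11 were higher and 1 lower, with Cdk4 at 168 against 98.3 CPM, the pocket protein genes Rb1 at 13.6 against 8.33 CPM and Rbl1 at 21.6 against 4.36 CPM, and Ccnd2 as the lower gene at 122 against 228 CPM. Of 11 p53 regulators 4 were higher and 0 lower, namely the damage kinases Atm (19.4 against 12.2 CPM), Chek1 (16.7 against 1.06 CPM) and Chek2 (20.7 against 6.06 CPM) and Skp2 (9.87 against 4.24 CPM), which marks p27 for degradation. Of 26 other p53 targets 4 were higher and 0 lower, with Aen at 32.7 against 21.1 CPM and Apaf1 at 19.7 against 12.8 CPM. Their median log2 ratio was 0.22 beside 0.06 for all genes, of which 13.9% were higher and 14.0% lower. Of 15 senescence secretory genes 3 were higher and 4 lower, with Timp1 at 242 against 116 CPM and Igfbp3 at 167 against 398 CPM. The stress genes were lower in part, with 5 of 14 dissociation response genes lower and 0 higher and 2 of 9 integrated stress response genes lower and 1 higher, including Atf3 at 65.1 against 109 CPM.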

How the data were processed

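The 2 deposited matrices hold raw UMI counts per gene and cell barcode, made by the authors with 10x Genomics counting software (Cell Ranger 6.0.1 in the CCl4 header, version 3.1.0 with no software name in the healthy header). The submitters' processing notes also name GRCh38 and mm10 as builds, and the gene identifiers are those of mouse. Members and gene lists were chosen with earlier results of these data known. Genes were matched by Ensembl identifier (30406 in both matrices, with 99.9% and 99.6% of the UMIs). Barcodes below 500 UMIs or 200 detected genes, or above 30% mitochondrial UMIs, were dropped, and doublets were removed with Scrublet, the assumed rate growing with the number of cells. Cells were clustered together with scanpy 1.11.5 on 2000 variable genes, 10 principal components, 20 neighbours and a Leiden resolution of 1, leaving out the members, the pathway lists and mitochondrial, ribosomal and sex-linked genes from the variable genes. A cluster was named from at least 3 of its class's markers, each at 2-fold and in 10% of cells, unless its 10 leading genes or its depth went against the name. UMIs were summed per population and divided by its total. A value of 0 was raised to 3 counts where a bound or a ratio over 0 is given. Shares of cells were also computed after thinning to 2000 UMIs per cell.

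All 9 members are given for the class, cluster and cycling comparisons, and those with enough UMIs in the finer divisions of cycling cells. For each, the 3 genes with the highest Pearson correlation are named, among genes reaching 20 CPM, except 1 gene that is not reported here. Of each other list, genes were taken from the 4 with the most UMIs among those past 1.5-fold. Populations under 50 cells gave no ratio. With 1 library per condition no test across samples was possible, and p-values were not computed. Intervals are exact 95% intervals and cover counting error only. The calculations were tested on simulated data. Other settings covered the mitochondrial limit, doublets, depth, clustering, scaling factors from edgeR 4.0.16, the fold and the limit for cycling cells.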

Additional observations from a re-analysis of the deposited data

Results flagged for a closer look

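The cycling comparison was repeated in 2 other CCl4 clusters with many cycling cells, and 3 members had a ratio on the other side of 1 from that of mesenchymal-like cells, with an interval that excluded 1 in each. The same was true of 200 of 11426 genes (1.75%) for cluster 23, with 2 of 9 members among them, and of 223 of 9553 genes (2.33%) for cluster 5, with 1 of 8 members. These differences between cell groups were not tested. Cells of 1 library are not replicates, so the values below compare these cells only.

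Cdkn1a was lower in the cycling cells of cluster 23, at 54.8 CPM in 84 cycling cells against 159 CPM in 614 non-cycling cells (ratio 0.344, 0.286 to 0.412), whereas the ratio was 2.10 in mesenchymal-like cells. The cycling cells of cluster 23 and of the mesenchymal-like class had nearly the same level, 54.8 and 54.3 CPM, and the non-cycling cells had 159 and 25.9 CPM. Mdm2 was also lower in cycling cells of cluster 23, at 30.8 against 42.0 CPM (0.734, 0.565 to 0.940), against a ratio of 1.42 in mesenchymal-like cells. In the same cluster Cdkn2a was 32.1 against 32.3 CPM (0.996, 0.767 to 1.28), Cdkn2b 15.8 against 24.3 CPM (0.651, 0.450 to 0.918), and Gdf15 18.8 against 7.45 CPM (2.53, 1.73 to 3.66). Other genes differed between the same cells, with the mesothelial genes Msln at 69.8 against 35.0 CPM and Upk3b at 191 against 101 CPM, the fibroblast gene Dpt at 29.6 against 50.4 CPM, the globin gene Hbb-bs at 3.43 against 153 CPM and the dissociation response gene Fos at 981 against 1718 CPM, and their part was not tested.

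Cdkn1b, the inhibitor p27, was lower in the cycling cells of cluster 5, at 24.3 CPM in 134 cycling cells against 43.8 CPM in 527 non-cycling cells (0.555, 0.348 to 0.851), against 1.15 in mesenchymal-like cells. Trp53 in that cluster was 168 against 96.4 CPM (1.74, 1.44 to 2.10), and Cdkn2a had 12 against 13 UMIs (3.05, 1.27 to 7.26). Beside them Col1a1 was 212 against 109 CPM, Wt1 17.5 against 3.82 CPM, Hbb-bs 8209 against 12797 CPM and Fos 556 against 993 CPM, and their part was not tested.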

How the results depend on the processing

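No paired analysis was possible because each condition had 1 library, and for the same reason no replicate could be left out. Between CCl4 and healthy mesothelial-like cells 7 members passed 1.5-fold, beside 24.4% of all genes higher and 26.0% lower. Under 11 planned settings 4 to 8 members did, and 10 of these settings stayed within 1.5 times of 7. The exception was a 2-fold rule, with 4 members. Between cycling and non-cycling mesenchymal-like cells 4 members passed, beside 13.9% of all genes higher and 14.0% lower. Under 15 planned settings 2 to 6 members did, with 2 members at a 2-fold rule. Settings added after seeing the data gave 5 to 7 and 2 to 5 members, with 2 within the low-UMI cluster 22. For 2 members the population with the highest share of cells with a UMI was also that with the highest CPM, and after thinning this held for 7. Some ratios whose main interval excluded 1 turned to the other side of 1. Gdf15 in mesothelial-like cells was 0.635 with no doublets removed, Cdkn1a was 0.846 in cluster 12 against cluster 7, and in cycling cells Cdkn1b was 0.894 with 30 principal components, Mdm2 was 0.969 within cluster 13, and within cluster 22 Cdkn1a was 0.729, Cdkn1b 0.816 and Trp53 0.569. The cause was not tested, but within cluster 22 each of these rests on at most 3 UMIs in cycling cells. Ratios whose main interval included 1 turned as well. In cycling cells Gdf15 ran from 0.335 to 3.995 and Ccng1 from 0.821 to 1.18 over the planned settings. Mdm2 in mesothelial-like cells ran from 0.937 to 1.16. Cdkn2b in cycling cells was 0.760 within cluster 13 and 0.798 within cluster 18. Over the planned settings the cycling ratio was 4.97 to 10.8 for Cdkn2a and 1.52 to 3.09 for Cdkn1a, and the mesothelial ratio was 2.66 to 3.15 for Trp53 and 1.36 to 2.25 for Cdkn1a. Depth limits Cdkn2a, Cdkn2b and Gdf15 most, since many populations had under 10 UMIs of them.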
